A study of Mus musculus with 3 samples.

Results

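SR proteins and heterogeneous nuclear ribonucleoproteins (hnRNPs) are the 2 large families of RNA-binding proteins that coat nascent transcripts and steer splice-site choice. They were taken here as every protein-coding gene of the GENCODE M21 annotation whose symbol starts with Srsf or Hnrnp, with Hnrnpll left out. This gave 30 genes, 11 Srsf and 19 Hnrnp, of 22028 protein-coding genes and 55536 genes in all. SR proteins carry RNA recognition motifs and a domain rich in arginine-serine dipeptides, and they mostly promote the use of exons they bind. Many hnRNPs oppose them by binding silencer elements, and both families also act in mRNA export, stability and translation. In T cells such proteins are known for setting the exons of surface receptors such as CD45. Genes of both families are also known for making transcripts that cannot give the full protein, either through a short "poison" exon that brings a stop codon or through an intron that stays in the RNA.

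PolyA-selected RNA came from naive CD4 αβ T cells of 1 male mouse of the strain B6.SJL-Ptprca Pepcb/BoyJ, aged 5 months, and was sequenced as 3 technical libraries. These are mature helper T cells before their first encounter with antigen. All libraries form 1 group with no second condition or animal, so each SD given here is a spread between technical libraries (n = 3) and says nothing of how mice differ. Levels are given in TPM, a read count per transcript length scaled to the same sum in each library. Libraries 1, 2 and 3 held 14837442, 18207118 and 17505621 expected counts, the deposited estimates of reads per gene. All 6 markers of CD4 T cells in the marker list were detected, with Cd4 at 444 ± 6.42 TPM, while of 2 CD8 T cell markers Cd8a averaged 0.140 TPM and Cd8b1 was detected at 16.8, 17.0 and 17.2 TPM. A single gene was detected in each of the B cell list (Cd79a at 2.06 TPM, of 3 genes), the myeloid list (Itgam at 1.63 TPM, of 3) and the erythroid list (Hbb-bs at 1.18 TPM, of 2), and none in the natural killer and double-positive thymocyte lists. The part of such cells in the results was not tested.

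All 30 genes were detected, meaning at least 1 TPM in every library, as were 9823 of the 22028 protein-coding genes (44.6%). Their median level was 207 TPM, against a median of 31.4 TPM over the detected protein-coding genes. At 100 TPM or more stood 21 of the 30, against 19.0% of the detected protein-coding genes and 8.49% of all protein-coding genes. Together the 30 genes held 1.19%, 1.06% and 1.21% of all TPM in libraries 1, 2 and 3. Most of the 30 genes lay in the upper range of expressed genes in these resting cells, and library 2 had the lowest summed share.

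The highest levels belonged to hnRNP genes. Hnrnpk, whose protein binds C-rich RNA through KH domains, had 1789, 1569 and 1976 TPM in libraries 1, 2 and 3. Hnrnpf, whose protein binds runs of G, had 1333, 1108 and 1411 TPM. Hnrnpa2b1, which encodes hnRNP A2 and B1, had 1277, 1075 and 1400.0 TPM. In each of these 3 genes library 2 was the lowest and library 3 the highest, and the ranges of Hnrnpf and Hnrnpa2b1 overlapped. Hnrnpu, known as scaffold attachment factor A and bound to chromatin and RNA, followed at 868, 774 and 944 TPM, below every value of those 3.

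Among SR genes, Srsf5 was the highest at 879, 859 and 827 TPM in libraries 1, 2 and 3. Srsf7, whose protein also acts as an adapter for mRNA export, had 744, 528 and 693 TPM. Srsf11, which encodes a divergent SR protein, had 460.3, 394 and 449 TPM. Srsf3, the smallest SR protein and likewise an export adapter, had 437, 403 and 409.9 TPM. The values of Srsf5 lay above those of Srsf7 in every library, while the ranges of Srsf11 and Srsf3 overlapped. The middle of the order was filled by Hnrnpab at 449 ± 21.9 TPM, Hnrnpd at 424 ± 22.9, Hnrnpc at 406 ± 26.2, Srsf2 at 339 ± 17.4, Hnrnpl at 337 ± 18.8 and Hnrnpm at 325 ± 38.6. Hnrnpd encodes AUF1, which binds AU-rich elements of mRNAs, Hnrnpc binds U tracts and Hnrnpl binds CA repeats.

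Lower still came Hnrnph1 at 234 ± 34.1 TPM, Srsf10 at 180 ± 20.1, Hnrnpdl at 175 ± 15.1, Srsf1 at 165 ± 10.7, Hnrnph2 at 150 ± 20.0, Srsf4 at 138 ± 12.3 and Hnrnpa1 at 134 ± 9.34. Srsf1 encodes the founding member of the SR family, and Hnrnpa1 encodes one of the best studied antagonists of SR proteins. Below 100 TPM lay Hnrnpr at 96.6 ± 3.78, Hnrnpa3 at 94.3 ± 6.25, Srsf6 at 82.7 ± 1.90, Hnrnpul1 at 76.6 ± 8.60, Srsf9 at 71.5 ± 11.4 and Hnrnph3 at 68.4 ± 8.91. Of the 29 pairs of neighbours in this order, 17 had overlapping ranges over the libraries and 12 did not, so the order is resolved only in part.

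At the low end, Hnrnpa0 had 25.2, 60.01 and 18.2 TPM in libraries 1, 2 and 3, with library 2 far above the other libraries. Hnrnpul2 had 8.97, 11.1 and 9.84 TPM. Srsf12, which encodes a divergent SR protein studied as a splicing repressor, had 7.37, 4.07 and 6.96 TPM and was the lowest of the 30. The lowest SR genes by mean were thus Srsf12, Srsf9 and Srsf6, where Srsf9 had 76.8, 58.4 and 79.3 TPM and Srsf6 had 84.2, 80.5 and 83.2 TPM. The third of the lowest hnRNP genes, Hnrnph3, had 78.3, 61.0 and 65.9 TPM.

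**Figure D1:**
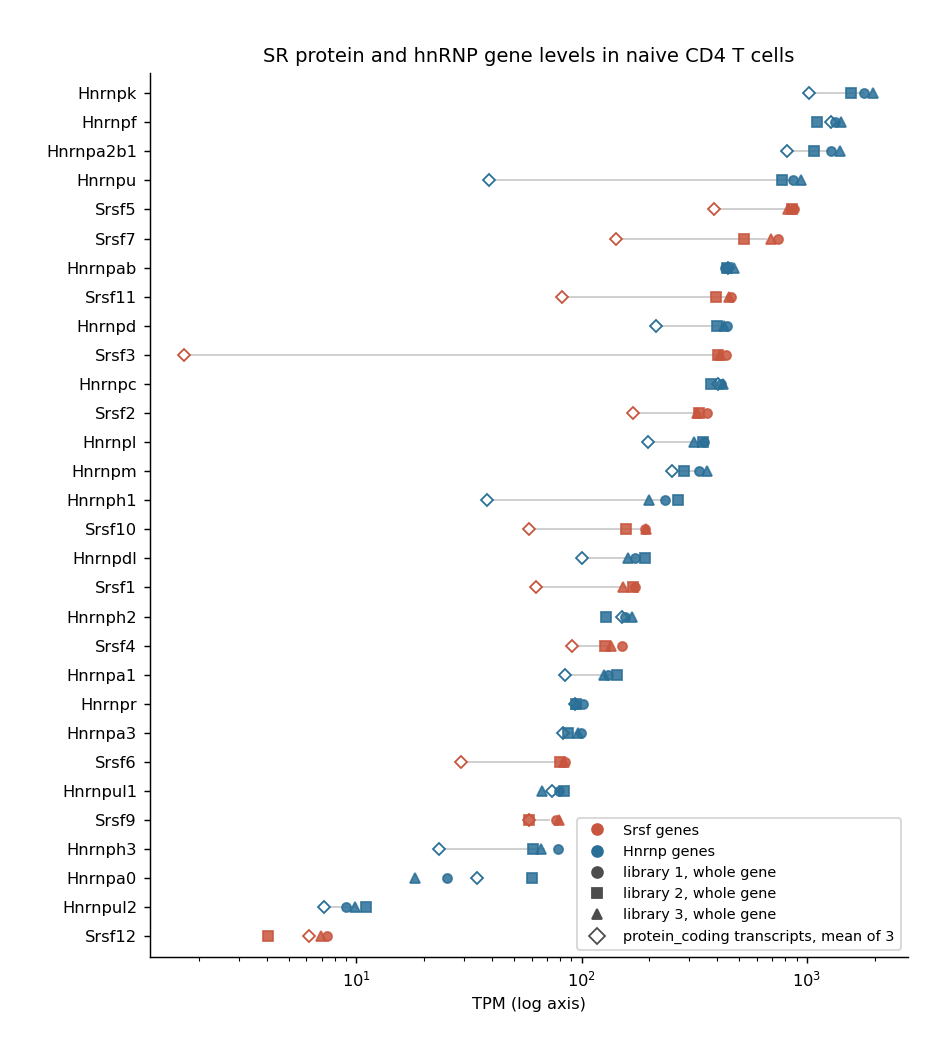
Level of each of the 30 genes in TPM on a log axis, Srsf genes in red and Hnrnp genes in blue. Filled symbols are the whole gene in libraries 1 to 3, and the open diamond is the mean of the 3 libraries over protein_coding transcripts alone. Hnrnpk is highest and Srsf12 lowest; the diamond lies far to the left for Srsf3, Hnrnpu and Hnrnph1 and on the filled symbols for Hnrnpf, Hnrnpab and Hnrnpc.

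The SR and hnRNP families had similar central levels. The median over SR genes was 191, 170 and 193 TPM in libraries 1, 2 and 3, and the median over hnRNP genes was 234, 267 and 199 TPM. The SR median minus the hnRNP median, on the log2(TPM + 0.1) scale, was -0.29, -0.65 and -0.05, with a mean of -0.33 ± 0.31. The sign was the same in every library, but library 3 was close to 0 and the spread between libraries was nearly as large as the mean. Summed over genes, the 11 SR genes held 3345 ± 225 TPM and the 19 hnRNP genes 8187 ± 632 TPM.

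Much of the RNA of these genes was assigned to transcripts annotated as nonproductive. GENCODE marks transcripts as nonsense_mediated_decay (NMD) where a stop codon lies well upstream of the last exon junction, which targets an mRNA for decay, and as retained_intron where intron sequence is kept. The nonproductive share used here is the percent of a gene's TPM that the deposited isoform percent gives to those 2 classes. It follows the annotated class alone, and some NMD transcripts counted in it keep the usual stop codon of the gene. Of the 30 genes, 23 had such a transcript annotated, 18 an NMD transcript and 21 a retained-intron transcript. Their median share was 41.4%, against 18.6% over the 6725 detected protein-coding genes with such a transcript, and 17.4% over the 1436 of these genes at 100 TPM or more. A share of 25% or more was found in 17 of the 23 (73.9%), against 40.4% of the detected genes. A share of 50% or more was found in 8 of the 23, against 15.9% of the detected genes. The median was 61.9% over Srsf genes and 34.5% over Hnrnp genes that had such a transcript. The 30 genes had a median of 7.5 annotated transcripts, against 5 for detected protein-coding genes, and the part of the number of annotated classes in these shares was not tested.

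The size of the share depended on its unit. As a share of expected counts, with no correction for length, the median was 29.8% over the 23 genes and 11.4% over the detected protein-coding genes. By that unit 12 of the 23 genes stood at 25% or more (52.2%), against 29.4% of the detected genes. The 5 genes that left that range were Srsf1 at 24.9%, Hnrnpdl at 24.5%, Hnrnpk at 22.6%, Srsf4 at 19.6% and Hnrnpul2 at 17.2% of expected counts. Srsf3, Srsf5 and Srsf7 had higher shares by expected counts than by TPM, at 94.1%, 59.9% and 82.6%. With NMD transcripts alone the median was 18.2% over the 18 genes that had one, against 7.35% over detected genes. With retained-intron transcripts alone it was 19.3% over 21 genes, against 14.2%. The genes lay above the detected protein-coding genes in the median under each of these definitions, and the smallest gap was for retained introns.

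**Figure D2:**
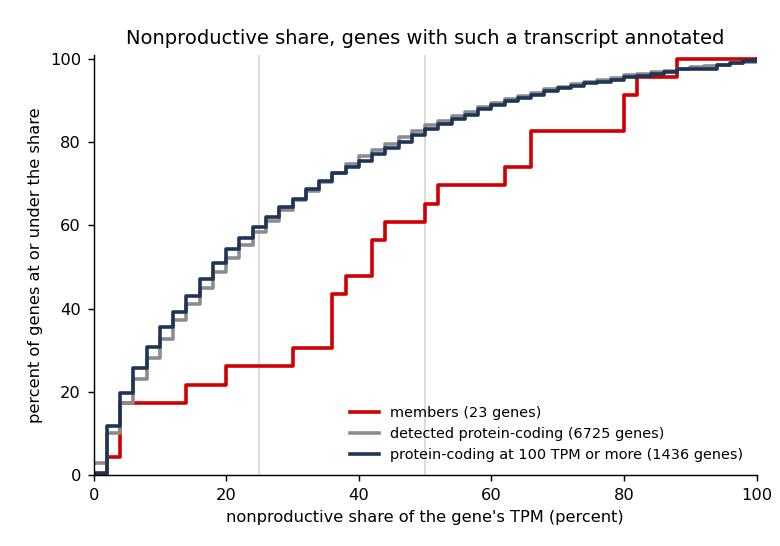
Percent of genes (vertical axis) at or under each nonproductive share of the gene's TPM (horizontal axis, percent), for the 23 SR and hnRNP genes with an NMD or retained-intron transcript annotated (red, labelled members), 6725 detected protein-coding genes (grey) and 1436 at 100 TPM or more (blue). Vertical lines mark 25% and 50%. The red line runs under the other two over most of the axis, with 17 of 23 genes at 25% or more.

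The 4 highest shares were in Hnrnpu, Srsf11, Srsf3 and Srsf7. In Hnrnpu (chr1:178321108-178337797, minus strand) the nonproductive share was 87.4%, 84.8% and 86.2% in libraries 1, 2 and 3. Most of it was the NMD transcript Hnrnpu-206, with 60.4% ± 1.52 of the gene's TPM. The full coding transcript Hnrnpu-201, 7640 bases long, took 4.50% of the gene's TPM. Hnrnpu-206 has 267 of its 2844 bases outside every coding transcript of the gene, so little of its sequence is its own. The longer Hnrnpu-201 also holds bases that Hnrnpu-206 lacks. In Srsf11 the share was 80.6%, 80.7% and 82.0%, spread over several retained-intron transcripts of which Srsf11-208 was the largest at 16.8% ± 0.344. In Srsf3 it was 78.1%, 82.0% and 76.7%. Retained-intron transcripts together held 56.0% ± 3.87 of that gene's TPM, and the largest single nonproductive transcript was the NMD transcript Srsf3-201 at 22.6% ± 1.06. The only transcript of Srsf3 annotated as coding, Srsf3-202, was at 1.65, 1.86 and 1.65 TPM, or 0.413% of the gene. In Srsf7 the share was 77.7%, 79.4% and 78.0%, led by the retained-intron transcript Srsf7-207 at 35.1% ± 3.53.

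Srsf6, Srsf1 and Srsf2 followed among the SR genes. The nonproductive share of Srsf6 was 66.9%, 62.7% and 64.5% in libraries 1, 2 and 3, nearly all of it the NMD transcript Srsf6-201 at 59.6% ± 3.75. That of Srsf1 was 61.0%, 63.6% and 61.2%. Retained-intron transcripts together held 40.5% ± 2.95 of its TPM, and the largest single nonproductive transcript was the NMD transcript Srsf1-204 at 21.5% ± 2.73. That of Srsf2, known as a marker of nuclear speckles, was 43.8%, 56.4% and 50.1%, led by the NMD transcript Srsf2-204 at 32.6% ± 0.632. Neither Srsf1-204 nor Srsf2-204 has a base that lies outside all coding transcripts of its gene, so neither has sequence of its own beside them. Srsf5 had 41.5%, 40.6% and 42.5%, led by the retained-intron transcript Srsf5-212 at 32.7% ± 1.76. Srsf4 had 33.5%, 34.8% and 35.6%, led by the NMD transcript Srsf4-203 at 17.7% ± 2.52. The shares of Srsf5 and Srsf4 moved by under 3 percentage points between libraries, while those of Srsf2 moved by more than 12.

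Among the hnRNP genes below Hnrnpu, Hnrnph3 had 71.9%, 57.0% and 67.5%, led by the retained-intron transcript Hnrnph3-206 at 26.4% ± 3.52. Hnrnpd had 49.0%, 47.9% and 52.2%, led by the NMD transcript Hnrnpd-208 at 23.7% ± 2.79. Hnrnpk had 40.8%, 46.5% and 40.6%, led by the retained-intron transcript Hnrnpk-217 at 16.3% ± 0.181. Retained introns thus led in Hnrnph3 and Hnrnpk, and NMD transcripts in Hnrnpu and Hnrnpd. Hnrnpl had 39.3%, 43.7% and 41.2%, led by the retained-intron transcript Hnrnpl-206 at 16.8% ± 5.74. Hnrnpa1 had 38.6%, 38.6% and 33.3%, almost all from the NMD transcript Hnrnpa1-203 at 36.1% ± 2.74. Hnrnpdl, which encodes a relative of AUF1, had 36.7%, 35.2% and 31.9%, led by the NMD transcript Hnrnpdl-205 at 18.9% ± 3.80.

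Hnrnpa2b1 had 36.3%, 31.7% and 35.3%, led by the retained-intron transcript Hnrnpa2b1-208 at 14.8% ± 0.206. Hnrnpul2 reached 28.3% ± 6.19 at a level below 10 TPM, all of it the retained-intron transcript Hnrnpul2-202. The rest of the 23 genes were lower, from Hnrnpm at 19.3% ± 3.37 and Hnrnpa3 at 12.5% ± 1.01 to Srsf9 at 3.57% ± 3.84, Hnrnpr at 3.42% ± 2.83, Hnrnpul1 at 3.34% ± 1.20 and Hnrnpc at 0.177% ± 0.0702.

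The other 7 genes, Hnrnpa0, Hnrnpab, Hnrnpf, Hnrnph1, Hnrnph2, Srsf10 and Srsf12, had no NMD or retained-intron transcript annotated. In 5 of these the protein_coding transcripts held all of the TPM to within 0.01 percentage points. In Hnrnph1 and Srsf10, however, transcripts annotated as neither coding, NMD nor retained intron held 83.5% and 67.8% of the TPM, so the absence of a nonproductive transcript in the annotation does not mean that their RNA was coding.

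**Figure D3:**
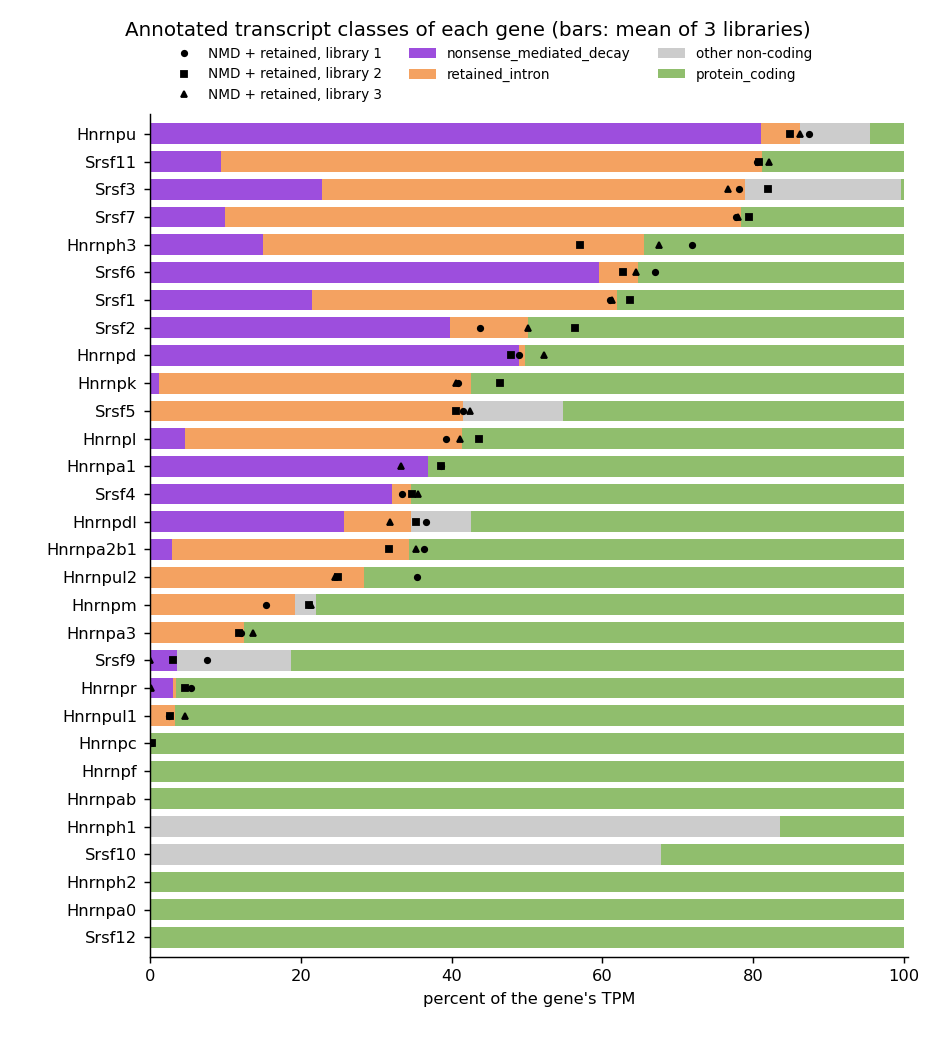
Share of each gene's TPM by annotated transcript class, as the mean of 3 libraries, in stacked bars from 0 to 100%. NMD is purple, retained intron orange, other non-coding classes grey and protein_coding green, and black symbols give NMD plus retained intron in each library. Srsf3 has almost no green, Hnrnph1 and Srsf10 are mostly grey, and Hnrnpu and Srsf6 are mostly purple.

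Counting only protein_coding transcripts changed the order of the genes. These transcripts held 56.0% of the TPM of the 30 genes, 32.5% for the Srsf genes and 65.6% for the Hnrnp genes, against 75.5% over all protein-coding genes. Hnrnpf then stood first at 1284 ± 157 TPM and Hnrnpk second at 1024 ± 169. Hnrnpu, at rank 4 by the whole gene, had 38.8 ± 3.64 TPM in coding transcripts. Srsf5 led the SR genes at 386 ± 11.2 TPM, while Srsf3 fell to the last place of the 30 at 1.72 ± 0.121 TPM. These levels are model estimates.

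The NMD transcripts were of several kinds. The 30 genes have 34 NMD transcripts annotated. Compared with the coding transcript of longest coding sequence in the same gene, 13 transcripts in 9 genes have their stop codon in sequence that this transcript does not hold, as a poison exon gives. A further 11 transcripts in 6 genes stop inside an exon that it does hold, and 10 transcripts in 5 genes use the usual stop with an exon junction added downstream of it. The last kind includes Hnrnpa1-203 at 36.1% and Hnrnpd-208 at 23.7% of the TPM of their genes. The nonproductive share thus also counts transcripts that reach the usual stop. The stop lay a median of 227.5 bases upstream of the last junction in the spliced transcript, and 52 bases at the least. For the first kind, the exon that carries the stop is shown from its first base to the stop codon for 7 genes, since this stretch ends the reading frame early. Not shown are Srsf5-208, at 0.163% of its gene's TPM, and Hnrnpdl-205, whose stretch runs over 303 bases. Sequences are from the GENCODE M21 transcripts (GRCm38, mm10), 5′ to 3′ on the strand of the gene, with the stop codon in capitals.
Srsf3: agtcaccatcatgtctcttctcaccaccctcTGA
Srsf7: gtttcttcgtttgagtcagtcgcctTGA
Srsf11: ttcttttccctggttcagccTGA
Srsf6: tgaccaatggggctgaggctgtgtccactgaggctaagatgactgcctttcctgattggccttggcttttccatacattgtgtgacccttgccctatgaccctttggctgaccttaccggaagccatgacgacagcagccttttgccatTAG
Srsf4: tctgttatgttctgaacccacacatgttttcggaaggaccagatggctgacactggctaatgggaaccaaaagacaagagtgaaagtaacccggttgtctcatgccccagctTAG
Srsf9: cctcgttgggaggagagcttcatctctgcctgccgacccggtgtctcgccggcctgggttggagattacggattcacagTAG
Hnrnpl: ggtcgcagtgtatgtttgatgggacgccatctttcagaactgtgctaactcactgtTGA

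These stretches belong to exons that lie within introns of the coding transcript. That of Srsf3 is chr17:29039454-29039487 (plus strand), the start of a 456-base exon in intron 3 of 5, and belongs to Srsf3-201. That of Srsf7 is chr17:80205054-80205081 (minus strand), the start of a 460-base exon in intron 3 of 7, and belongs to Srsf7-203, which held 9.92% of the gene's TPM. Srsf3 and Srsf7 thus both have such an exon in their intron 3, of nearly the same length, with the stop within the first 34 bases. That of Srsf11 is chr3:158024209-158024231 (minus strand), in a 109-base exon in intron 3 of 12, and belongs to an NMD transcript at 5.25% of TPM. That of Srsf6 is chr2:162932815-162932966 (plus strand), in a 268-base exon in intron 2 of 5 of Srsf6-201, the transcript with most of that gene's TPM.

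In Srsf4 the stretch is chr4:131884276-131884390 (plus strand), in a 207-base exon in intron 1 of 5 of Srsf4-203. In Srsf9 it is chr5:115328347-115328428 (plus strand), in a 358-base exon in intron 1 of 3 of Srsf9-205, at 3.57% of TPM. In Hnrnpl it is chr7:28817335-28817393 (plus strand), in a 70-base exon in intron 6 of 11 of Hnrnpl-213, at 4.62% of TPM. For Srsf3, Srsf7, Srsf11, Srsf6 and Hnrnpl the same exon also lies inside a transcript annotated as retained_intron, so reads in it do not by themselves separate an included exon from an unspliced intron.

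Retained introns could be placed for 14 of the 21 genes with a retained-intron transcript, where a whole intron lies inside an exon of that transcript. None was placed for Hnrnpc, Hnrnpd, Hnrnpm, Hnrnpu, Hnrnpul1, Srsf4 and Srsf11, although retained-intron transcripts held 71.7% of the TPM of Srsf11. None was placed for the leading transcript Hnrnpl-206 either. The retained-intron transcripts covered 34 distinct introns of coding transcripts, with a median length of 305.5 bases, and all 34 began with GT and ended with AG. Some of the 34 introns overlap, as those of 1059, 686 and 269 bases in Srsf2 do, and 1 in Srsf5 spans only 21 bases. The junctions of 4 of them are shown because they lie in the leading retained-intron transcripts of their genes: the last 6 exon bases and first 12 intron bases at the 5′ end, and the last 24 intron bases and first 4 exon bases at the 3′ end, with GT and AG in capitals.
Srsf5 intron 5, 5′ end: tggcagGTttgttgaaat
Srsf5 intron 5, 3′ end: ttaacataattgtcttgtgttaAGgatc
Srsf7 intron 3, 5′ end: aagcagGTatttaattaa
Srsf7 intron 3, 3′ end: gtatttttctaacttaaaaaatAGgtca
Hnrnpk intron 15, 5′ end: gatatgGTaagtttcttc
Hnrnpk intron 15, 3′ end: cttgctgctcattatttaaatcAGacta
Hnrnph3 intron 4, 5′ end: atggtgGTatgtgtgtct
Hnrnph3 intron 4, 3′ end: tctttttccttccattttatacAGgcta

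Intron 5 of 7 of Srsf5 spans 1229 bases (chr12:80947866-80949094, plus strand) and is kept in Srsf5-212. Intron 3 of 7 of Srsf7 spans 874 bases (chr17:80204388-80205261, minus strand), holds the poison exon shown above and is kept in Srsf7-207. Intron 15 of 17 of Hnrnpk spans 78 bases (chr13:58393775-58393852, minus strand) and is kept in Hnrnpk-217, where it gives the only bases that lie outside the coding transcripts. Intron 4 of 9 of Hnrnph3 spans 430 bases (chr10:63017611-63018040, minus strand) and is kept in Hnrnph3-206. In the median, 45.2% of the bases of a retained-intron transcript and 16.4% of those of an NMD transcript lay outside all coding transcripts of the gene, and 10 of the 34 NMD transcripts had no such base. Retained-intron transcripts thus had more sequence of their own than NMD transcripts.

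The estimates were sharp for some transcripts and loose for others. The deposited tables hold an interval for each transcript around a posterior mean of TPM, at a level not given in the sources used here. For Hnrnpu-206 the posterior mean in library 1 was 455 TPM with bounds of 446 and 464. For Srsf5-212 it was 243 TPM with bounds of 232 and 254. For Srsf1-204 it was 27.2 TPM with bounds of 20.6 and 33.5, and for Hnrnpl-206 it was 42.9 TPM with bounds of 24.4 and 57.4. The bounds were thus narrow for Hnrnpu and Srsf5 and wide for the last 2.

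Ratios were taken within 13 pairs of related genes on the log2 scale of TPM + 0.1, and the first gene of the pair was the higher in 9. The largest difference was between Srsf10, a repressor when dephosphorylated, and its relative Srsf12, at 4.68, 5.24 and 4.77 in libraries 1, 2 and 3. Hnrnpa2b1 exceeded Hnrnpa3 by 3.72 ± 0.12 and Hnrnpa1 by 3.22 ± 0.29, and Hnrnpa3 exceeded Hnrnpa0 by 1.64 ± 0.97. Hnrnpa2b1 thus had the highest estimated level of these A/B genes, and the pair with Hnrnpa0 spread the most between libraries. Of 50-base windows of annotated transcripts, 28.2% of Hnrnpa1 and 27.1% of Hnrnpa3 also occur in another gene, against 0.591% of Hnrnpa2b1. The part of shared sequence in these ratios was not tested.

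Srsf5 exceeded Srsf6 by 3.37 ± 0.05, Srsf1 exceeded Srsf9 by 1.22 ± 0.30, and Srsf6 lay below Srsf4, with a difference of -0.74 ± 0.10. Srsf3 lay below Srsf7, with a difference of -0.64 ± 0.22 by the whole gene and -6.27 ± 0.42 by coding transcripts. Hnrnpul1 exceeded Hnrnpul2 by 2.93 ± 0.19 and Hnrnpf exceeded Hnrnph1 by 2.46 ± 0.39. Hnrnpdl lay below Hnrnpd, at -1.28 ± 0.19, and Hnrnpd was close to Hnrnpab by the whole gene, at 0.04, -0.14 and -0.14. Hnrnpd lay below Hnrnpab by coding transcripts, at -1.07 ± 0.14. Hnrnph1 exceeded Hnrnph2 by 0.63 ± 0.41 by the whole gene but lay below it, at -1.97 ± 0.27, by coding transcripts. That was the only one of the 13 pairs whose mean changed sign between the 2 measures. By coding transcripts Srsf1/Srsf9 stood at -0.01, 0.50 and -0.10 in libraries 1, 2 and 3, so its mean of 0.13 ± 0.32 gives no clear direction. In the counts of the older annotation, which are not per length, Srsf5 exceeded Srsf6 by 0.33, Srsf10 exceeded Srsf12 by 2.91, Hnrnpa2b1 exceeded Hnrnpa1 by 5.96, and Hnrnpa3/Hnrnpa0 and Hnrnpf/Hnrnph1 changed sign to -3.12 and -3.71.

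Differences between the technical libraries were tested gene by gene with a chi-square test of rounded expected counts against library sizes scaled by TMM (edgeR), with Benjamini-Hochberg adjustment over 13090 genes. Of the 30 genes 26 had an adjusted p under 0.05, against 40.0% of all genes tested and against 1444 of the 1870 protein-coding genes at 100 TPM or more. The ratio of the highest to the lowest library had a median of 1.14 over the 30 genes. It was 1.17 over tested protein-coding genes and 1.13 over those at 100 TPM or more. Of the 26 genes, 12 were highest in library 2, 11 in library 3 and 3 in library 1, beside 1907, 1736 and 885 of the 4528 protein-coding genes called. Without library 2, 16 of the 30 genes and 14.7% of all genes tested were called.

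The 5 genes with the largest ratios among those called were Hnrnpa0, Srsf12, Hnrnph1, Hnrnpul2 and Hnrnpul1. Hnrnpa0 had scaled counts of 640.4, 1656 and 465 in libraries 1, 2 and 3, a ratio of 3.56 (edgeR TMM scaling, adjusted p = 1.63e-197). Srsf12 had 136, 77.2 and 153, a ratio of 1.99 (adjusted p = 6.05e-06), with library 2 the lowest. Hnrnph1 had 3792, 4796 and 3362, a ratio of 1.43 (adjusted p = 5.71e-61). Library 2 was thus the highest for Hnrnpa0 and Hnrnph1 and the lowest for Srsf12. For Hnrnpul2 the counts were 365, 518 and 428, a ratio of 1.42 (adjusted p = 1.12e-05), and for Hnrnpul1 they were 2530.1, 3006 and 2193, a ratio of 1.37 (adjusted p = 4.83e-29). Hnrnpa0 and Srsf12 alone of the 30 genes reached a ratio of 1.5 (6.67%), as did 12.7% of tested protein-coding genes and 5.51% of those at 100 TPM or more. Not called were Hnrnpc, Hnrnpd, Hnrnpr and Hnrnph3. Hnrnpa0 is an intronless gene with a single annotated transcript, and its older counts of 325, 822 and 287 were also highest in library 2.

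**Figure D4:**
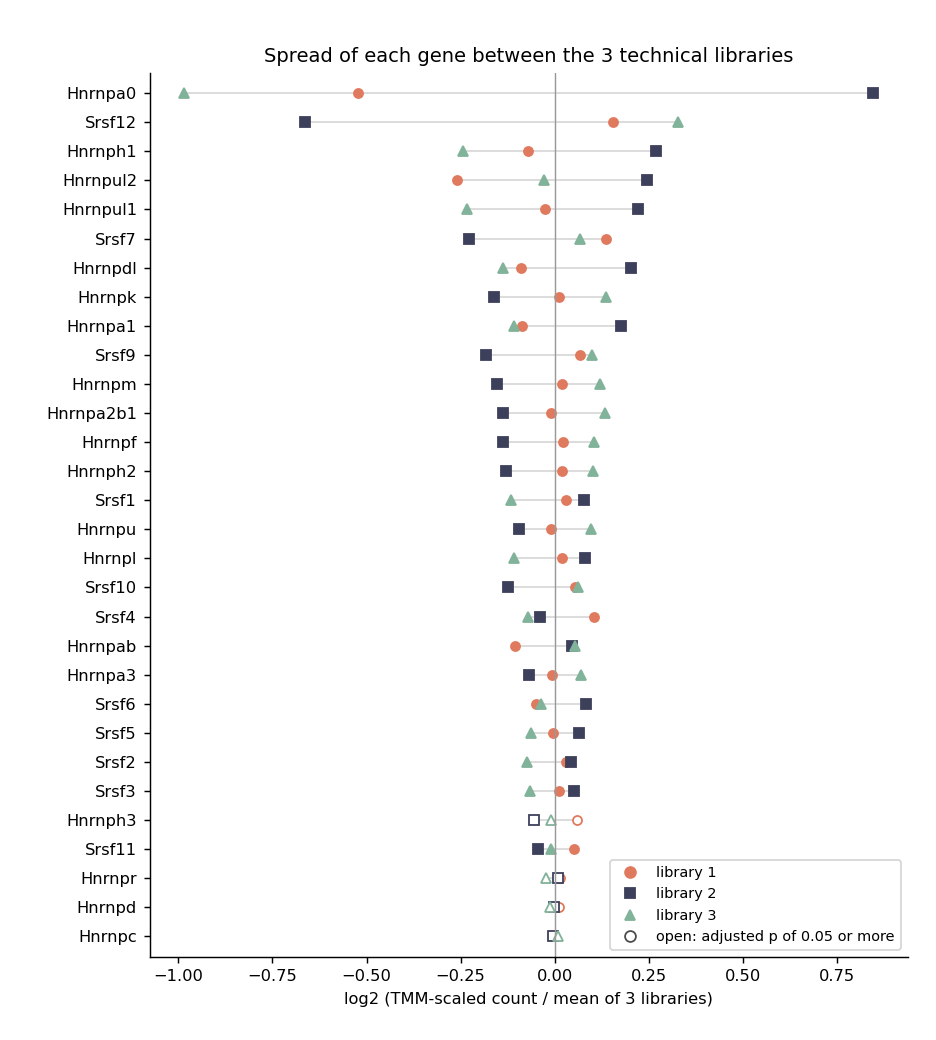
TMM-scaled count of each gene in each technical library over the mean of the 3 libraries, on the log2 scale, ordered by the ratio of highest to lowest. Open symbols mark genes with an adjusted p of 0.05 or more. Hnrnpa0 and Srsf12 stand apart, with library 2 at opposite ends, and the other genes lie within a ratio of 1.43.

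The nonproductive share was tested between libraries in the same way, on rounded expected counts of NMD plus retained-intron transcripts against all others. Of 22 of the genes with enough counts, 16 had an adjusted p under 0.05, against 53.7% of the 5779 protein-coding genes tested. Among tested protein-coding genes at 100 TPM or more, 851 of 1393 were called. They were 4 of 9 Srsf genes and 12 of 13 Hnrnp genes. Those called include Srsf2, whose nonproductive counts were 1160, 2025 and 1524 in libraries 1, 2 and 3 beside 2984, 2976 and 3030 other counts. Its share differed between libraries (chi-square test of nonproductive against other counts, adjusted over the 5779 genes, adjusted p = 1.55e-33). The shares of Srsf1, Srsf4, Srsf5, Srsf6, Srsf7 and Hnrnpa3 were not called. This test takes estimated counts as if they were observed, so it does not include the error of dividing reads between transcripts.

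Genes that act with these families were present as well. Of 8 kinases that phosphorylate SR proteins, 7 were detected, with Clk1 at 1026 ± 13.1 TPM, Srpk1 at 341 ± 26.8 and Clk4 at 276 ± 23.9, and Srpk3 was below 1 TPM. All 8 have a nonproductive transcript annotated and 7 had a share of 25% or more, with Clk1 at 42.7%. All 12 genes for SR-related proteins were detected, led by Srrm2 at 991 ± 84.5 TPM, Tra2b at 278 ± 17.8 and Rnps1 at 245 ± 14.7, and 8 of the 12 had a share of 25% or more, including Tra2b at 60.2%. Among detected protein-coding genes with such a transcript, 40.4% reached that share. Both genes for import receptors of SR and hnRNP proteins were detected, Tnpo3 at 88.0 ± 3.23 TPM and Tnpo1 at 58.5 ± 6.58, and 1 of the 2 had a share of 25% or more.

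All 10 genes of nonsense-mediated decay were detected, with a median of 45.6 TPM, led by Upf1 at 72.8 ± 6.04, Smg9 at 71.9 ± 4.99 and Smg1 at 51.4 ± 5.34. Of the 6 that have a nonproductive transcript annotated, 3 had a share of 25% or more. All 5 genes of the exon junction complex were detected, led by Eif4a3 at 275 ± 29.4, Rbm8a at 127 ± 12.9 and Magoh at 109.7 ± 9.47. The 7 genes that recognise splice sites were all detected, led by Sf3b1 at 672 ± 35.9, Sf1 at 401 ± 47.5 and U2af1 at 219.8 ± 11.9. Of 13 other nuclear RNA-binding genes all were detected, led by Ptbp1 at 470.3 ± 54.8, Pcbp1 at 307 ± 20.1 and Tardbp at 211 ± 11.1. The share was 25% or more in 2 of 2 exon junction genes, 5 of 7 splice-site genes and 5 of 11 other RNA-binding genes with such a transcript. Median levels of these lists ran below the 207 TPM of the SR and hnRNP genes.

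A second, older count table gave far lower values for several of the genes. Those counts were made on the GENCODE M4 annotation, and over 5645 protein-coding genes with a mean of 500 expected counts or more they came to a median of 48.2% of the expected counts. Over the 30 genes the median was 26.3%, and 7 of them were under 10%, as were 6.75% of those protein-coding genes. Hnrnpu had 16861, 19012 and 21426 expected counts in libraries 1, 2 and 3 but 0, 0 and 0 older counts. Hnrnpf had 22059, 23580 and 27552 expected counts and 105, 105 and 105 older counts. Hnrnpa1 had 1722, 2470 and 2003 expected counts and 33, 37 and 32 older counts. The other 4 under 10% were Hnrnpa3, Hnrnpk, Srsf3 and Srsf5, while Hnrnpul2 and Hnrnph3 were at 66.8% and 66.6%.

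These genes share sequence with other genes to different degrees. Of all 50-base windows of its annotated transcripts, Hnrnpf had 61.9% that also occur in a transcript of another gene, Srsf4 39.5%, Hnrnpa1 28.2% and Hnrnpa3 27.1%. The windows of Hnrnpa1 recur in 19 pseudogenes and those of Hnrnpa3 in 41. Over the 30 genes the median was 5.55%, 12 genes were at 10% or more and 4 at 0, and no window was shared with another of the 30. Of the 7 genes under 10% in the older table, 6 had 10% or more shared windows, with Srsf3 and Srsf5 just above at 10.04% and 10.08%, whereas Hnrnpu had 6.04%. The other genes at 10% or more shared windows kept from 10.6% (Srsf10) to 49.3% (Srsf4) of their counts. Hnrnpm kept 47.3%, and Srsf4 had more shared windows than all but Hnrnpf. A link between the 2 measures was not tested. Windows were matched on both strands, so genes at the same locus count as well as copies elsewhere. Srsf4, Hnrnpab, Srsf2 and Hnrnpm share windows with no pseudogene, and each overlaps another annotated gene. Where reads were divided between genes that share windows, the levels of these genes are uncertain. In all, 15 of the 30 genes overlap another annotated gene, 5 of them a protein-coding gene on the opposite strand, as Hnrnpu does Cox20 and Srsf2 does Mettl23. Whether counting used strand is not given in the sources used here, so reads in those overlaps cannot be told apart.

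**Figure D5:**
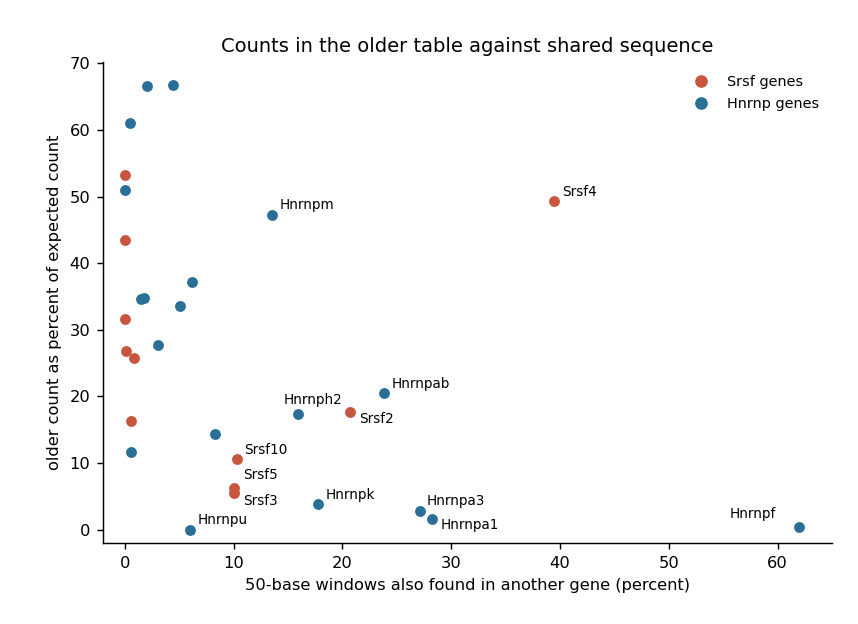
Older count as percent of the expected count, summed over the 3 libraries (vertical axis), against the percent of 50-base transcript windows also found in another gene (horizontal axis), for the 30 genes; names are given for genes at 10% or more shared windows or under 10% older counts. Hnrnpf, Hnrnpa1, Hnrnpa3 and Hnrnpk lie near 0 on the vertical axis with 17.8% to 61.9% shared windows, Hnrnpu lies at 0 with 6.04%, and Srsf4 lies at 49.3% with 39.5%.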

How the data were processed

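RNA of 1 mouse was measured in 3 technical libraries. The SR and hnRNP genes and the gene lists were chosen with earlier results of these data known. Values in each library are given for the 4 highest and 3 lowest genes of each family, for those with a nonproductive share of 25% or more and 10 TPM or more, and for the 5 largest called differences between libraries.

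The authors deposited gene and transcript tables on mm10 with the GENCODE M21 annotation, and a further table on GENCODE M4, per the files that accompany them. The sources used here do not give the aligner, the counter or the strand setting. Expected counts, estimated reads per feature that need not be whole, were deposited by the authors and rounded here before tests. TPM were deposited by the authors as maximum-likelihood and posterior mean estimates, scaled over all entries, per the file headers. Isoform percent was deposited as the percent of a gene's TPM per transcript. The interval bounds of TPM, per the file headers, are treated as a score of no stated level. Length minus effective length, in the deposited tables, was 49. Whole-number counts on M4 were deposited by the authors and serve as an alternative. Entries that name no gene, at 0.247%, 0.200% and 0.325% of expected counts in libraries 1, 2 and 3, were left out.

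A gene was detected at 1 TPM in every library; log2 values use a pseudocount of 0.1. TMM factors from edgeR 4.0.16 in R 4.3.3, computed on genes averaging 10 counts or more, scaled the library sizes. Chi-square tests (scipy 1.17.1) with Benjamini-Hochberg adjustment used a threshold of 0.05, and share tests needed 30 gene counts in each library and expected cells of 5. Both were tested on simulated data. They compare technical libraries and cover counting error only. DESeq2 1.42.0 gave size factors for an alternative. The replicates carry no second group, so no comparison of conditions was made. A result for 1 marker gene is not reported here.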

Additional observations from a re-analysis of the deposited data

How the results depend on the processing

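All 30 genes were detected with posterior mean TPM, with TPM rescaled over protein-coding genes, at a minimum of 0.1 TPM and without each library in turn, and 29 at a minimum of 5 TPM. The median level was 186 with posterior mean TPM, 237 with rescaled TPM and 204 to 216 when each library was left out. The median nonproductive share was 29.8% of expected counts, 18.2% with NMD alone, 19.3% with retained introns alone, 42.6% with every class that is not protein_coding, and 40.2% to 41.6% when each library was left out. Genes at 25% or more numbered 7 of 18 with NMD alone (38.9%), against 22.9% of detected protein-coding genes with such a transcript. With retained introns alone they numbered 10 of 21 (47.6%), against 31.1%. When each library was left out they numbered 16 to 17 of 23. Genes called between libraries numbered 8 of 29 tested with counts of the older annotation, where 19.0% of all genes were called, and 16 to 23 when each library was left out, 16 being without library 2. Of all genes tested, 36.65%, 14.72% and 27.5% were then called between libraries without libraries 1, 2 and 3. Genes with a called share numbered 11 to 12 of 22 tested when each library was left out. Of all genes tested for the share, 40.95%, 28.95% and 34.96% were called without libraries 1, 2 and 3. The difference of SR minus hnRNP medians ran from -0.47 to -0.17 when each library was left out. Pairs with the first gene higher numbered 9 when each library was left out. With older counts the pair Hnrnpa3/Hnrnpa0 turned to -3.12 and Hnrnpf/Hnrnph1 to -3.71, Srsf5/Srsf6 shrank to 0.33 and Srsf3/Srsf7 moved to -1.74, and the cause was not tested. Of 493 values recomputed, 351 kept their size within the technical spread or their count within 1.5 times, 140 moved further and 2 changed sign. No paired analysis was possible because there is 1 group. Estimated isoform shares carry an assignment error that 3 technical libraries do not measure, and 1 animal gives no biological error.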
